A study of Mus musculus with 6 samples.

Results

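The 10 genes described here mark GABAergic interneurons and their classes in the mouse brain: Gad1, Gad2 and Slc32a1, which every GABAergic neuron uses, Pvalb, Sst, Vip and Lamp5, which name the main classes, and Npy, Reln and Lhx6, which are shared by some of them. They were chosen by name, with earlier results of these data known. They are 10 of the 52390 genes counted and 10 of the 21844 genes that passed the filter on low counts. Interneurons are local inhibitory neurons that make the transmitter GABA from glutamate and load it into vesicles. Parvalbumin cells mostly contact the soma and axon of pyramidal neurons, somatostatin cells contact their dendrites, and many Vip cells contact other interneurons. Outside the cortex the same genes mark other neurons, since the projection neurons of the striatum and septum are also GABAergic.

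RNA-seq libraries of brain from 3 AP1AR-DT OE mice and 3 control mice were compared, 1 library per mouse. All were male mice of the C57BL/6 strain that had received a recombinant adeno-associated virus into the medial prefrontal cortex (mPFC) when 8 weeks old. The virus of the AP1AR-DT OE group carried AP1AR-DT, a human long non-coding RNA also named AC109347.1, under the human synapsin I promoter, which restricts it mainly to neurons, with EGFP under a CMV promoter, and the controls received an empty vector without an insert. Behavior was tested 3 weeks after the injection, and the age at which RNA was taken was not stated in the sources used here. The label of the samples is brain, while the study names both cortical tissue and the mPFC. The table of mouse genes does not list AP1AR-DT, so the overexpression could not be read from these values. The AP1AR-DT OE libraries are called A, B and C because their columns could not be tied to single mice.

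The control libraries held 42061721 to 49957663 counts and the AP1AR-DT OE libraries 51374941 to 54668294. The share of counts in mitochondrial genes was 7.20% to 9.86% in the controls and 5.75% to 6.80% in AP1AR-DT OE, so neither measure overlapped between the groups, and their part in the results was not tested. Their cell type and region markers were uneven, above all among the controls. The 10 cortical excitatory neuron markers summed to 1168 to 2026 normalized CPM (counts scaled by library size with TMM factors) in the controls and 1705 to 2915 in the AP1AR-DT OE libraries, but Slc17a7, the vesicular glutamate transporter that defines most cortical excitatory neurons, ranged from 3.86 CPM in control 2 to 463 in AP1AR-DT OE B. The 10 choroid plexus markers summed to 5153 CPM in control 3 and to 116 to 156 in the other libraries, with Kcnj13 at 0 in control 1, control 2 and AP1AR-DT OE A. The 10 hypothalamus markers summed to 635 CPM in control 2, 92.9 in control 3 and 17.0 to 39.9 elsewhere, with Oxt at 0 in control 1 and AP1AR-DT OE B. The 7 thalamus markers summed to 782 CPM in control 3 and 121 to 226 elsewhere, and the 7 oligodendrocyte markers to 10924 CPM in control 3 and 5176 to 6593 elsewhere. The 10 markers of striatal medium spiny neurons, which are GABAergic, summed to 434 CPM in control 2, 586 in control 3, 1636 in control 1 and 1014 to 2819 in the AP1AR-DT OE libraries. At the thresholds used below, 6 of 9 choroid plexus, 5 of 9 hypothalamus, 3 of 7 thalamus and 2 of 7 oligodendrocyte markers tested were lower in AP1AR-DT OE, where 7.15% of all genes were. Without control 3 these counts were 0, 2, 1 and 2. The sums of the 7 pan-neuronal markers (3920 to 4442 CPM in the controls, 3756 to 4194 in AP1AR-DT OE) and the 7 astrocyte markers (4182 to 5197 and 4184 to 4338 CPM) were more even. Single genes of these lists still passed the thresholds, with Map2 (Log2FC -0.44) and Aqp4 (-0.60) lower and Rbfox3 (0.40) higher in AP1AR-DT OE. Map2 passed also without control 3 (-0.56) and with correction for GC content (-0.39). Aqp4 (-0.22 and -0.36) and Rbfox3 (0.43 and 0.19) passed in neither setting. The 6 septum markers summed to 672 to 740 CPM in the controls and 406 to 776 CPM in AP1AR-DT OE. In bulk tissue, fewer cells of a type and less RNA per cell cannot be told apart, and the part of these markers in the results below was not tested.

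Per kilobase of the longest transcript, the levels of the 10 genes spanned a wide range. Sst (264 ± 81.4 CPM per kb, SD over the 6 libraries) and Slc32a1 (225 ± 62.4) were the highest, followed by Gad1 (107 ± 26.8) and Gad2 (95.3 ± 22.1). Npy (18.4 ± 7.07), Lamp5 (16.8 ± 7.66), Lhx6 (16.2 ± 5.67) and Pvalb (11.3 ± 5.02) came next. Reln (4.51 ± 1.64) and Vip (1.75 ± 1.89) were the lowest. The order was firm at some steps and not at others. Slc32a1 exceeded Gad1, Gad2 exceeded Npy and Reln exceeded Vip in all 6 libraries, whereas Sst exceeded Slc32a1 in 5, Gad1 exceeded Gad2 in 5, Npy exceeded Lamp5 in 4 and Lamp5 exceeded Lhx6 in 3. Parvalbumin RNA was thus well under somatostatin RNA in these libraries, with 4.25 to 18.8 CPM per kb for Pvalb against 148 to 396 for Sst.

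**Figure D1:**
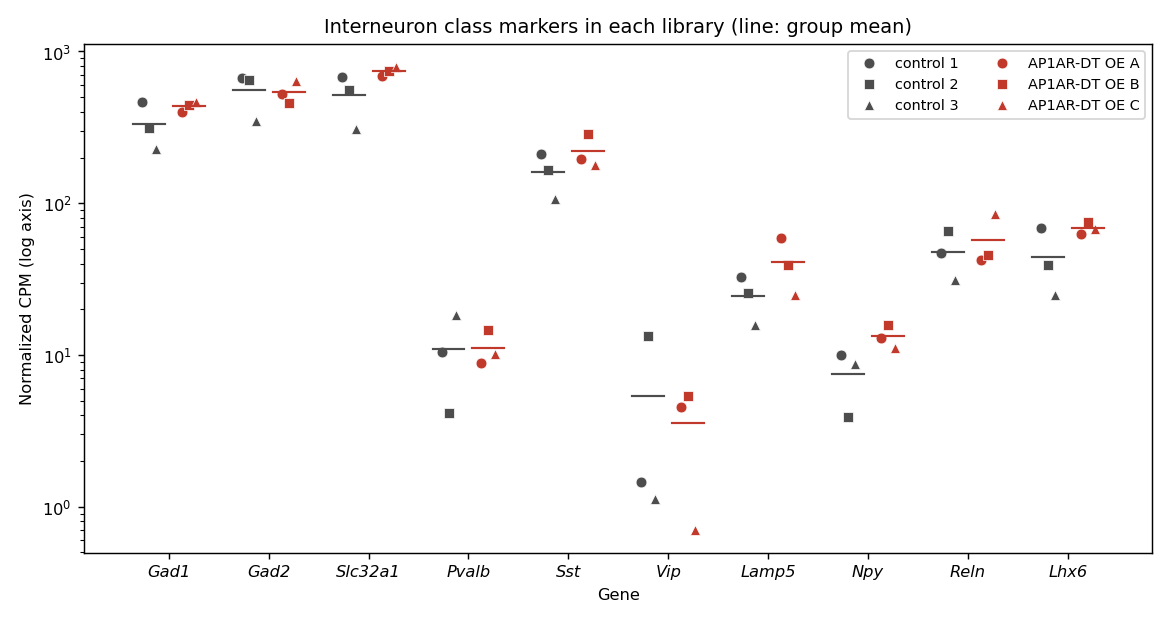
Normalized CPM (log axis) of the 10 interneuron class markers in each of the 6 libraries, with control in grey, AP1AR-DT OE in red, a symbol for each library and a line at each group mean. Control 3 is the lowest of the libraries for 7 genes, the AP1AR-DT OE libraries lie close together for Slc32a1, Gad1 and Lhx6, and Vip spans the widest range.

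Npy was the only one of the 10 genes that passed the thresholds of the study for a differentially expressed gene (DEG), an unadjusted P under 0.05 and |Log2FC| above 0.32, and it was higher in AP1AR-DT OE. Of all genes tested 12.2% passed (5.1% higher and 7.15% lower), so 1 of 10 is near the share of all genes. With Benjamini-Hochberg adjustment over all genes tested in edgeR, 0 of the 10 passed at 0.05, against 0.0275% (6) of all genes. The number of all genes that passed adjustment depended on the method, with 450 in DESeq2 and 4 in limma-voom. The lowest adjusted P of any of the 10 in any of 16 fits, which included DESeq2 and limma-voom, was 0.154. The Log2FC was positive for 8 of the 10 genes, with a median of 0.42, while 48.5% of all genes tested were positive and their median was -0.01. Some other neuronal lists had the same sign, since 10 of 10 striatal medium spiny neuron markers (median Log2FC 0.90) and 9 of 10 cortical excitatory neuron markers (0.61) were positive. Others did not, with 3 of 7 pan-neuronal (median -0.12), 0 of 6 septum (-0.30), 0 of 7 thalamus (-1.48) and 1 of 9 hypothalamus markers (-2.14) positive. The groups did not overlap for 2 of the 10, Slc32a1 and Npy, both higher in AP1AR-DT OE. Among all genes tested 22.4% did not overlap, 10.4% with AP1AR-DT OE higher. An exact permutation test of 3 libraries against 3 cannot give a P below 0.1, and these 2 genes reached that value.

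Among the enzymes and the transporter of GABA, Slc32a1 and Gad1 had higher means in AP1AR-DT OE and Gad2 did not. Gad1 (chr2:70553072-70602014, plus strand, GRCm38) encodes GAD67, which makes most of the GABA of the cell body. Its level was 464, 313 and 228 CPM in controls 1, 2 and 3 and 398, 445 and 467 CPM in AP1AR-DT OE A, B and C. Control 1 was as high as the AP1AR-DT OE libraries, controls 2 and 3 were under all of them, and the groups overlapped. The means were 335 ± 120 and 437 ± 35.5 CPM (SD, n = 3 each), a Log2FC of 0.38 ± 0.24 (SE) and an adjusted P of 0.470 in edgeR.

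Gad2 (chr2:22622205-22693874, plus strand), the gene of GAD65, which supplies GABA at terminals, had 669, 644 and 348 CPM in the controls and 524, 460 and 640 CPM in AP1AR-DT OE. The controls held both the highest and the lowest value, and the AP1AR-DT OE libraries lay between them. The means of 554 ± 179 and 541 ± 91.1 CPM gave a Log2FC of -0.03 ± 0.26 (SE, adjusted P = 0.963, edgeR), and its 95% interval of -0.64 to 0.57 leaves room for changes in either direction.

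Slc32a1 (chr2:158610767-158615748, plus strand) encodes VGAT, the transporter that fills vesicles with GABA. It was at 679, 558 and 309 CPM in the controls and at 694, 741 and 789 CPM in AP1AR-DT OE. Every AP1AR-DT OE library was above every control, but the gap between control 1 and AP1AR-DT OE A was small beside the range of the controls. The Log2FC was 0.52 ± 0.26 (SE), and the adjusted P was 0.384 in edgeR. Without control 3 it was 0.27.

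The 3 genes are used together by the same neurons but did not keep the same ratio between the groups. The log2 ratio of Slc32a1 to Gad2 was 0.02, -0.21 and -0.17 in the controls and 0.40, 0.69 and 0.30 in AP1AR-DT OE. The log2 ratio of Gad1 to Gad2 was -0.53, -1.04 and -0.61 in the controls and -0.40, -0.05 and -0.45 in AP1AR-DT OE. Both ratios were higher in every AP1AR-DT OE library than in any control, with means of -0.12 ± 0.12 and 0.46 ± 0.20 (SD) for the first, while Slc32a1 to Gad1 overlapped. These ratios were singled out after their values were seen and were not tested. GC content moved with the first of them. The longest transcripts of Gad2, Gad1 and Slc32a1 have a GC content of 44.1%, 47.3% and 61.9%, and over all genes the median Log2FC rose from -0.30 in the tenth of genes with the lowest GC content to 0.22 in the tenth with the highest. After correction for GC content the Log2FC was 0.26 for Slc32a1, 0.12 for Gad2 and 0.45 for Gad1, so that the difference of Slc32a1 no longer exceeded that of Gad1 and came close to that of Gad2, while Gad1 stayed above Gad2.

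**Figure D2:**
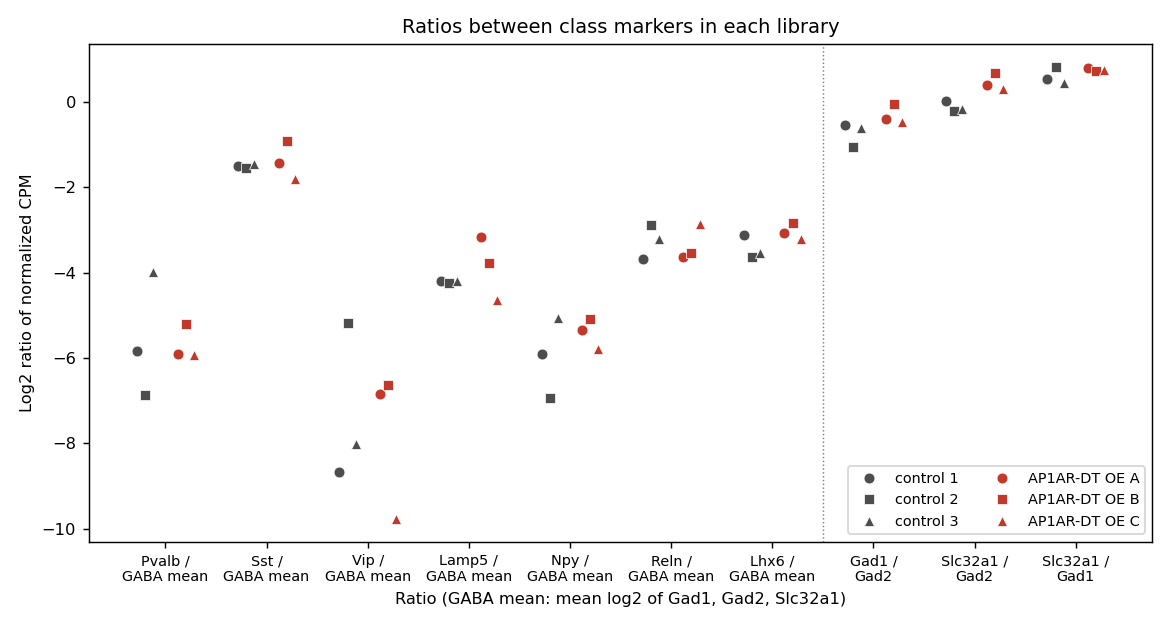
Log2 ratios of normalized CPM in each library, with the 7 class and shared markers over the mean of Gad1, Gad2 and Slc32a1 at the left of the dotted line and the 3 ratios among Gad1, Gad2 and Slc32a1 at the right, control in grey and AP1AR-DT OE in red. The groups separate for Gad1 over Gad2 and Slc32a1 over Gad2 and overlap for the other 8 ratios.

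Among the class markers no gene passed the thresholds, and the spread between mice differed greatly from class to class. Pvalb (chr15:78191114-78206400, minus strand) encodes parvalbumin, a calcium buffer of fast-spiking cells. Its level was 10.4, 4.16 and 18.4 CPM in the controls and 8.80, 14.6 and 10.1 CPM in AP1AR-DT OE. Controls 2 and 3 were the lowest and highest of the libraries, and the AP1AR-DT OE values lay inside the range of the controls. The Log2FC was 0.02 ± 0.49 (SE, adjusted P = 0.985, edgeR). Pvalb was the only one of the 10 genes that was highest in control 3, the library with the high thalamus, choroid plexus and oligodendrocyte markers. The cortical excitatory markers, as mean log2 CPM minus its mean over the libraries, were at 0.75 in control 3. They were lowest in control 2 (-1.45), as Pvalb was, but higher in AP1AR-DT OE A (0.78) and B (1.26) than in control 3. The part of these markers was not tested. Without control 3 the Log2FC of Pvalb was 0.62, and without control 2 it was -0.37, with neither value passing the threshold.

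Sst (chr16:23889573-23890958, minus strand) encodes somatostatin, the peptide of dendrite-targeting cells. It was at 210, 165 and 107 CPM in the controls and 194, 286 and 178 CPM in AP1AR-DT OE. AP1AR-DT OE B was the highest, control 3 the lowest, and control 1 lay within the AP1AR-DT OE range. The means were 161 ± 51.9 and 219 ± 57.8 CPM, and the Log2FC of 0.45 ± 0.27 (SE) did not pass (adjusted P = 0.457, edgeR). Sst followed the GABA genes closely in the controls. Its log2 ratio to the mean of Gad1, Gad2 and Slc32a1 was -1.50, -1.55 and -1.44 there, a range far smaller than that of the gene itself, and -1.43, -0.90 and -1.79 in AP1AR-DT OE.

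Vip (chr10:5639218-5647617, plus strand) encodes vasoactive intestinal peptide, made by interneurons that inhibit other interneurons and also by hypothalamic neurons. It was the least abundant and the most variable of the 10, at 1.45, 13.4 and 1.12 CPM in the controls and 4.56, 5.36 and 0.705 CPM in AP1AR-DT OE. These values rest on 37 to 667 counts per library. The highest and lowest libraries differed 19.0-fold and belonged to different groups, and control 2, with the highest Vip, also had the highest hypothalamus markers. Control 3 had the next highest sum of these markers (92.9 CPM) but low Vip. AP1AR-DT OE A and B had sums of 17.0 and 18.1 CPM but more Vip than controls 1 and 3. The part of these markers was not tested. The Log2FC was -0.59 ± 1.06 (SE, adjusted P = 0.818, edgeR). Without control 2 the sign turned, to 1.46.

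Sst and Vip also share letters in their promoters that the other 8 genes lack there. The cAMP response element (CRE), the palindrome TGACGTCA, is bound by CREB-family factors and is a classic feature of the somatostatin gene. In RefSeq promoters of GRCm38.p6 (250 bases before to 50 after a start), searched on both strands, 1.79% of 32851 promoters held TGACGTCA and 3.21% held TGACGTC, the same letters without the last. Of the 14 promoters of the 10 genes, only that of Sst held the former, and those of Sst and Vip held the latter. Both stretches of 30 bases are shown 5′ to 3′ with these letters in capitals, Sst from chr16:23890874-23890903 on the minus strand, where the letters begin at position -48 from the RefSeq start, and Vip from chr10:5639128-5639157 on the plus strand, where they begin at position -79. The GENCODE model of Sst starts further upstream and includes its stretch in the first exon, while that of Vip lies before the gene.
Sst: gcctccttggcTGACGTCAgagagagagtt
Vip: gatcactactgTGACGTCtttcggggagcc
The pair did not follow each other over the libraries, since Vip was highest in control 2 and Sst in AP1AR-DT OE B, with a Pearson r of 0.31 for log2 CPM over the 6 libraries. A match of letters is a description of the promoter and shows no use of it.

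Lamp5 (chr2:136052239-136069917, plus strand) encodes a lysosome-associated membrane protein found in neurogliaform cells and in some projection neurons. Its level was 32.4, 25.7 and 15.8 CPM in the controls and 58.9, 39.3 and 25.0 CPM in AP1AR-DT OE. AP1AR-DT OE A and B were above all controls, while AP1AR-DT OE C was under controls 1 and 2. The means were 24.6 ± 8.34 and 41.0 ± 17.0 CPM, and the Log2FC of 0.74 ± 0.36 (SE) did not pass (adjusted P = 0.373, edgeR). Its ratio to the GABA genes was nearly constant in the controls (log2 of -4.20, -4.23 and -4.20) and spread from -4.63 to -3.16 in AP1AR-DT OE. The library with the highest Lamp5, AP1AR-DT OE A, also had the highest sum of striatal medium spiny neuron markers.

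Of the 3 markers shared between classes, Npy differed most. Npy (chr6:49822710-49829507, plus strand) encodes neuropeptide Y, made by neurogliaform cells, a part of the somatostatin cells and many neurons outside the cortex. It was at 9.96, 3.92 and 8.73 CPM in the controls and at 12.8, 15.7 and 11.1 CPM in AP1AR-DT OE, from 195 to 849 counts per library. All AP1AR-DT OE libraries were above all controls, with control 2 far below the rest and a small gap between control 1 and AP1AR-DT OE C. The means were 7.53 ± 3.19 and 13.2 ± 2.33 CPM. The Log2FC was 0.82 ± 0.34 (SE) with a 95% interval of 0.02 to 1.61, which passed the thresholds without adjustment, while the adjusted P was 0.325 in edgeR. Without control 2 its Log2FC was 0.50 and still passed. The call was lost without control 3 (Log2FC 0.94) and without AP1AR-DT OE A (0.84), B (0.67) or C (0.92), each left out alone. With correction for GC content Npy no longer passed (Log2FC 0.70, adjusted P = 0.569 in edgeR). Relative to the GABA genes it overlapped between the groups, with log2 ratios of -6.95 to -5.06 in the controls and -5.79 to -5.08 in AP1AR-DT OE.

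Reln (chr5:21884454-22344702, minus strand) encodes reelin, an extracellular protein secreted by Cajal-Retzius cells in development and by interneurons in the adult. Its level was 46.7, 65.8 and 31.4 CPM in the controls and 42.4, 45.8 and 84.6 CPM in AP1AR-DT OE. AP1AR-DT OE C and control 2 stood above the other 4 libraries, and the Log2FC of 0.26 ± 0.34 (SE) did not pass (adjusted P = 0.737, edgeR). Without AP1AR-DT OE C it was -0.12. The 4 Cajal-Retzius cell markers summed to 37.8 CPM in control 2, 29.5 in control 3, 15.9 in AP1AR-DT OE C and 6.21 to 8.70 in the other 3 libraries, so both Reln and these markers were high in control 2, while in control 3 the markers were high and Reln was at its lowest.

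Lhx6 (chr2:36081953-36105408, minus strand) encodes the transcription factor kept by interneurons that arise in the medial ganglionic eminence, which include the parvalbumin and somatostatin classes. It was at 68.8, 39.1 and 24.9 CPM in the controls and 62.7, 75.0 and 67.3 CPM in AP1AR-DT OE. Control 1 was inside the range of AP1AR-DT OE and controls 2 and 3 were below it. The means were 44.2 ± 22.4 and 68.3 ± 6.19 CPM, and the Log2FC of 0.63 ± 0.33 (SE) did not pass (adjusted P = 0.404, edgeR). With control 1 as the only control it was -0.01.

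Control 3 had the lowest value of the 6 libraries for 7 of the 10 genes (Gad1, Gad2, Slc32a1, Sst, Lamp5, Reln and Lhx6), while it was the lowest library for 20.5% of all genes tested. Control 1 resembled the AP1AR-DT OE libraries, since 7 of the 10 genes in control 1 lay within the range of AP1AR-DT OE, against 2 in control 2 and 1 in control 3, where the shares over all genes tested were 40.6%, 34.6% and 34.2%. The coefficient of variation was larger among the controls than in AP1AR-DT OE for 8 of the 10 genes, with Lamp5 and Reln as the exceptions, and this was so for 58.0% of all genes. The median coefficient of variation of the 10 genes was 36.3% in the controls and 22.0% in AP1AR-DT OE, against 16.8% and 13.9% over all genes. Leaving out control 3 lowered the median Log2FC of the 10 genes from 0.42 to 0.25 and left 0 of the 10 past the thresholds. Leaving out controls 2 and 3, a setting chosen after seeing the data, lowered it to 0.11. Leaving out control 1 raised it to 0.69, and Gad1, Slc32a1, Sst, Lamp5, Npy and Lhx6 then passed. With control 1 as the only control, the Log2FC was -0.09 for Gad1, -0.01 for Lhx6, 0.06 for Sst and 0.13 for Slc32a1, while it was 0.34 for Lamp5 and 0.41 for Npy. Controls 2 and 3 were the libraries with high hypothalamus, thalamus or choroid plexus markers, and they also had the lowest sums of the GABAergic striatal medium spiny neuron markers (434 and 586 CPM, against 1014 or more in every other library). With 3 control libraries, what comes with the group and what comes with these markers cannot be told apart.

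**Figure D3:**
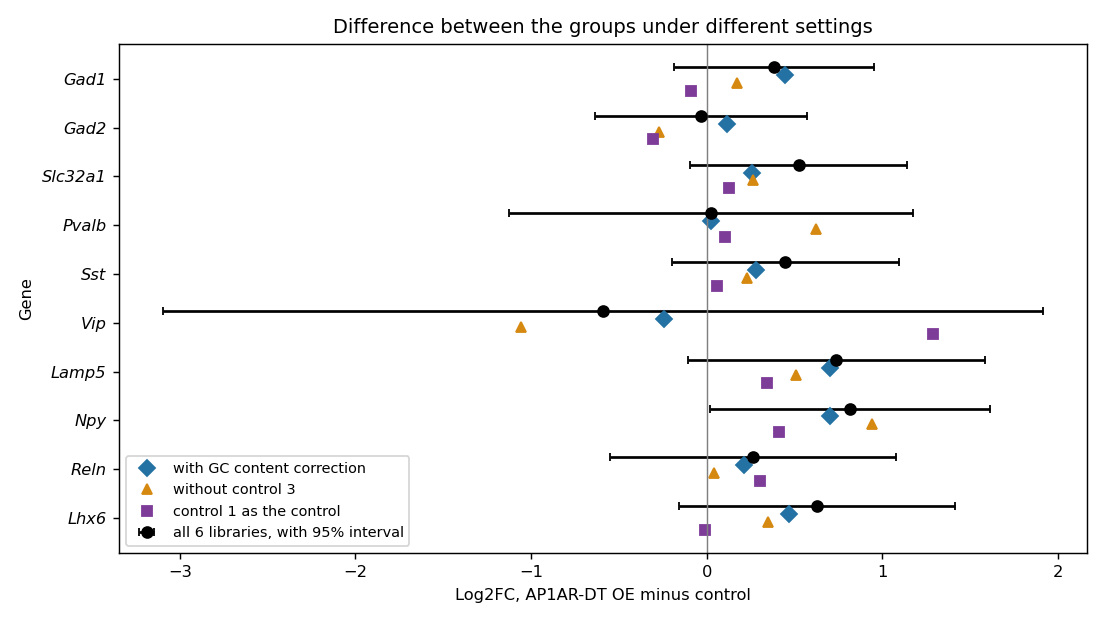
Log2FC (AP1AR-DT OE minus control) of the 10 genes with all 6 libraries and its 95% interval (black), with correction for GC content (blue), without control 3 (orange) and with control 1 as the only control (purple). Only the interval of Npy excludes 0, and with control 1 alone Gad1, Sst and Lhx6 lie within 0.09 of 0.

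Over the 6 libraries the log2 CPM of Gad1, Slc32a1, Sst and Lhx6 moved together, with Pearson r of 0.99 between Gad1 and Lhx6, 0.96 between Gad1 and Slc32a1, 0.96 between Slc32a1 and Lhx6 and 0.90 between Sst and Lhx6. Gad2 followed Reln (r = 0.78) more closely than it followed Gad1 (r = 0.66), and it ran against Pvalb (r = -0.73). These correlations describe 6 libraries that share their groups, and they have no P. The gene most like Gad1 among all other genes tested was Lzts1 (r = 0.99), followed by Lhx8, a transcription factor of forebrain cholinergic and GABAergic lineages, at 21.7, 13.0 and 8.19 CPM in the controls and 18.6, 19.5 and 20.1 CPM in AP1AR-DT OE. Krba1, Pdxk and Pianp were most like Slc32a1, and Pdxk makes pyridoxal phosphate, the cofactor of both GAD enzymes. Cplx1, a complexin of synaptic vesicle release, was most like Npy (r = 0.997), with 678, 410 and 643 CPM in the controls and 779, 925 and 712 CPM in AP1AR-DT OE. The nearest genes were Arhgap6, Gm36989 and Brd1 for Gad2, Ppp1r8 for Lhx6, Sdhb for Sst, Slc25a13 for Pvalb, Trnau1ap for Lamp5, A730081D07Rik for Vip and 1500009L16Rik for Reln. The nearest gene of each of the 10 had an r of 0.989 to 0.997, out of 21844 genes tested over 6 libraries.

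The 7 other lists held 70 genes from GABA metabolism, interneuron development, the classes and their receptors. Of these genes 11 passed the thresholds, where 12.2% of all genes did. With all libraries 0 passed adjustment in edgeR. The lowest adjusted P in any of the 16 fits was 0.00916 for Calb1 and 0.0427 for Nr2f2. Of the 11 genes for GABA synthesis, breakdown and transport, 10 were tested, 0 passed and the median Log2FC was -0.04. Abat, which breaks GABA down, and Slc6a11, the glial GABA transporter, had Log2FC of -0.11 and -0.17. Glul, which makes the glutamine from which GABA is rebuilt, was picked after its values were seen, because it was at 1527 CPM in control 1 and 1541 in AP1AR-DT OE A but at 300 to 384 CPM in the other 4 libraries.

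Of 16 transcription factors of the interneuron lineages, 3 were higher and 2 lower in AP1AR-DT OE at the thresholds. Sp8, a factor of lineages from the caudal ganglionic eminence and of olfactory bulb interneurons, was at 3.69, 4.72 and 3.66 CPM in the controls and 3.19, 29.7 and 59.0 CPM in AP1AR-DT OE, so that its Log2FC of 2.93 rested on 2 of the 3 AP1AR-DT OE libraries. Npas1, a factor of forebrain interneurons that also passed upward, had a Log2FC of 0.64. Nr2f2, a factor of the caudal lineage that is also expressed outside the cortex, was at 5.65, 49.4 and 34.3 CPM in the controls and 7.58 to 8.90 CPM in AP1AR-DT OE. Prox1, of the same lineage and of the thalamus and hippocampus, was at 93.3 CPM in control 3 and 11.3 to 20.4 CPM elsewhere. Nr2f2 and Prox1 were thus high only in controls that also had high hypothalamus or thalamus markers, and Dlx1, Dlx2, Dlx5 and Dlx6, which specify GABAergic neurons, did not pass.

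Among the genes that accompany Pvalb, 1 of 9 passed. Syt2, the calcium sensor of their terminals, was at 58.7, 40.7 and 30.9 CPM in the controls and 60.7, 82.1 and 65.6 CPM in AP1AR-DT OE (Log2FC 0.68, adjusted P = 0.296 in edgeR). Kcnc1, the potassium channel behind fast spiking, had a Log2FC of 0.28, under the size threshold, with no overlap between the groups. Erbb4, a neuregulin receptor, had -0.25. Without control 3 Syt2 (0.49) no longer passed, and Erbb4 (-0.36) passed as lower. With correction for GC content and all libraries, Syt2 passed (0.61), while Kcnc1 (0.11) and Erbb4 (-1.3e-05) did not.

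Among 7 genes that accompany Sst, Calb1 passed, lower in AP1AR-DT OE. This gene of the calcium buffer calbindin, used by many neuron types, was at 69.1, 113 and 125 CPM in the controls and 46.8, 46.5 and 63.0 CPM in AP1AR-DT OE, with no overlap. Its Log2FC was -0.97 ± 0.24 (SE, adjusted P = 0.295 in edgeR). It passed the thresholds also without control 3 (-0.80) and with correction for GC content (-0.64). Calb1 was highest in controls 2 and 3, the libraries with high hypothalamus, thalamus or choroid plexus markers. Cort, the peptide cortistatin related to somatostatin, was low at 0.301 to 5.32 CPM, and Crhbp had a Log2FC of 0.63 that did not pass. Elfn1, an adhesion protein of somatostatin cells picked after its values were seen, was at 2.62 CPM in AP1AR-DT OE A and 56.8 to 120 CPM in the other 5 libraries.

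Of 8 genes that accompany Vip, 1 passed, Cxcl14, a chemokine gene of interneurons from the caudal lineage. It was at 206, 122 and 121 CPM in the controls and 238, 271 and 177 CPM in AP1AR-DT OE. Its Log2FC of 0.61 did not pass without control 3 (0.48) or with correction for GC content (0.46). Calb2, the gene of calretinin, was at 38.6, 114 and 192 CPM in the controls and 36.4 to 79.9 CPM in AP1AR-DT OE, and Tac2 at 1.57, 4.68 and 6.53 against 2.02 to 2.42 CPM, with neither passing. Both were highest in control 3, as the thalamus and choroid plexus markers were.

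Of 6 genes that accompany Lamp5, all had a positive Log2FC (median 0.37) and Kit passed. Kit, a receptor tyrosine kinase, was at 24.3, 18.0 and 13.9 CPM in the controls and 27.6, 32.1 and 30.5 CPM in AP1AR-DT OE, with every AP1AR-DT OE library above every control. Its Log2FC was 0.68 ± 0.20 (SE, adjusted P = 0.295 in edgeR), 0.51 without control 3 and 0.71 with correction for GC content, past the thresholds in both. Ndnf had a Log2FC of 0.51 and Cplx3 of 0.99, and neither passed with all libraries. Cplx3 was at 1.01 to 6.64 CPM in all.

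Among 13 receptors of the peptides and of reelin, 2 passed. Sstr4, a somatostatin receptor, was at 4.97, 5.64 and 5.65 CPM in the controls and 7.43, 8.24 and 7.15 CPM in AP1AR-DT OE, so the groups did not overlap, and its Log2FC was 0.49. With correction for GC content it was 0.25 and did not pass. Vipr1, a receptor of vasoactive intestinal peptide, was at 3.61, 0.863 and 4.02 CPM in the controls and 13.0, 9.76 and 3.60 CPM in AP1AR-DT OE, with AP1AR-DT OE C in the range of the controls. Its Log2FC was 1.64, and with correction for GC content it was 1.49 and did not pass. The Npy receptors Npy1r, Npy2r and Npy5r had Log2FC of 0.21, -0.36 and 0.33, and the reelin receptors Vldlr and Lrp8 had -0.24 and -0.14. None of these 5 passed.

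**Figure D4:**
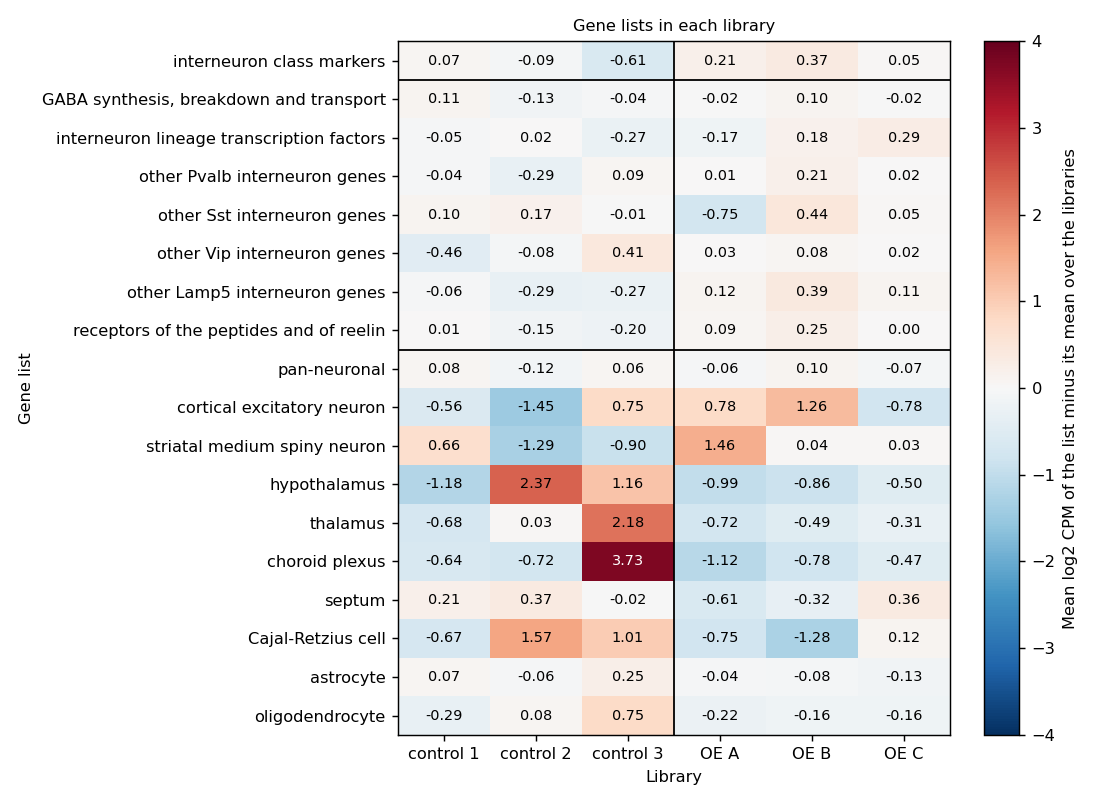
Mean log2 CPM of each gene list in each library minus its mean over the 6 libraries, from -4 (blue) to 4 (red), with the 10 interneuron class markers on top, then the 7 related lists and the 10 cell type and region lists. The class markers are lowest in control 3 (-0.61), where choroid plexus (3.73) and thalamus (2.18) markers are highest, and hypothalamus markers are highest in control 2 (2.37).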

How the data were processed

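RNA was extracted with Trizol and made into TruSeq libraries. Per the study's methods, the authors mapped reads to GRCm38 with Bowtie2 at default settings and took gene counts from StringTie's coverage of GENCODE genes. The deposited counts were whole numbers without normalization. The submitters' processing notes name TopHat2 2.0.4, SAMtools, HTSeq, Cuffdiff, edgeR 2.6.12 and mm9 instead, and the difference could not be settled. Bowtie2 does not split reads at introns, and no strand setting was stated. The deposited table also holds the authors' mean normalized count (a signal), their log2 fold changes, their Wald score and their p-values, none of which were used. Coordinates in the table did not match GRCm38, so positions, GC content and lengths came from GENCODE vM21.

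Counts were compared in R 4.3.3 with edgeR 4.0.16 (filterByExpr, TMM factors, quasi-likelihood F-test, two-sided, Benjamini-Hochberg adjustment over 21844 genes). The study's limits for a DEG were kept (|Log2FC| above 0.32 with P under 0.05). CPM used the TMM factors, and likenesses and exact permutation tests used log2(CPM + 0.5). The model was tried on simulated counts. A limit set for the number of genes with the right sign was just missed at first and was then lowered. Most genes simulated with a log2 fold change of 1 were missed at an adjusted P under 0.05, so a gene that does not pass adjustment may still have changed. At 3 libraries per group the precision is that of each standard error. Rows without a gene name held 0.00928% of counts. The mouse of each library is a separate animal by its label.

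The GC and length curves were splines with 5 degrees of freedom, fitted to the 14384 genes whose mean log2 CPM exceeded 2 and used as offsets. The other settings were DESeq2 1.42.0, its size factors, library totals, limma-voom (limma 3.58.1), no filter, at least 10 counts in every library and leaving out each library. The 10 genes, the lists and the rule for named genes (all 10, up to 3 genes with the smallest P of each other list, and the 3 genes most like each of the 10) were chosen with earlier results of these data known. A few genes that this rule names are not reported here. No 100-base stretch of the 10 transcripts occurred in another gene. Slc32a1 and Reln overlap antisense genes, each under 0.333 CPM on average in either group, and Lhx6 overlaps a further gene model on its own strand that was not used here. Python 3.11.15 with pandas 2.3.3 and matplotlib 3.10.9 made the tables and figures.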

Additional observations from a re-analysis of the deposited data

How the results depend on the processing

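With 3 libraries per group and a spread of the controls that reached 131% of the mean (Vip), the calls depended on the setting. Npy passed in DESeq2, limma-voom, with either other scaling, with either other filter, with the length correction and without control 1 or control 2, but not with the correction for GC content, without controls 2 and 3, or without control 3, AP1AR-DT OE A, B or C alone. Without AP1AR-DT OE C the 1 gene that passed was Lamp5. The number of the 10 genes that passed was 1 at first, 4 in DESeq2 (Slc32a1, Lamp5, Npy and Lhx6), 2 in limma-voom, 0 with the correction for GC content, 0 without controls 2 and 3 and 0 to 6 when single libraries were left out, the 6 without control 1 and the 0 without control 3, AP1AR-DT OE A or AP1AR-DT OE B. The number of DEGs over all genes was 2675 at first, 1563 with the correction for GC content, 1764 without controls 2 and 3 and 1401 to 3469 when single libraries were left out. The 11 genes called in the related lists became 5 without controls 2 and 3 and 3 to 20 when single libraries were left out. Over all settings the Log2FC of the 10 genes changed sign 15 times. For Gad2 these were 0.12 with the correction for GC content, 0.014 in limma-voom, 0.031 with the correction for length, and 0.07, 0.13 and 0.09 without AP1AR-DT OE B, control 1 and control 2. For Pvalb they were -0.026 with the correction for length, and -0.22, -0.01 and -0.37 without AP1AR-DT OE B, control 1 and control 2. Vip turned to 1.46 without control 2 and to 1.29 without controls 2 and 3, Reln to -0.12 without AP1AR-DT OE C, and without controls 2 and 3 Gad1 and Lhx6 turned to -0.089 and -0.0095. Without control 3 the range reached 0.62 for Pvalb and -1.06 for Vip, and without control 2 it reached 0.56 for Reln. Gad2 was at -0.27 without control 3, and its range reached -0.30 without controls 2 and 3. The causes of these shifts were not tested. In the fits that leave 1 control, its spread is taken from the other group. No paired analysis was possible because the groups share only the replicate number 3 and the AP1AR-DT OE columns carry no mouse number.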
